A study of Arabidopsis thaliana with 2 samples.

Results

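In Arabidopsis thaliana seeds from crosses of Bur-0 with Col-0 in both directions, 58 short stretches of the genome were read almost only from the mother in both directions of the cross, but at least 4 times more often when the mother was Bur-0. Each stretch is a 71-nt window of the TAIR8 sequence with a SNP between both accessions at its centre. The largest difference was at a window of chromosome 1 (29626665 to 29626735), with 454 maternal matches in Bur-0×Col-0 and 11 in the reciprocal cross. It was followed by a pair of windows on chromosome 5, 317 nt apart. The 58 windows lay at 43 places, and isolated windows beside them, which the selection did not use, had a median ratio of 2.54 between the crosses, against 0.684 over all such windows. Of the windows that could be tied to a locus, those in FMO GS-OX2, which encodes a glucosinolate S-oxygenase, had more maternal matches with a Bur-0 mother at all 9 eligible windows. In the sulfate transporter gene SULTR4;2, the endoplasmic reticulum receptor gene ERD2B, the kinase gene SNRK2.2 and the allantoinase gene ALN, a single window passed the limit and the other eligible windows had ratios of at most 1.27.

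The study compared RNA of whole F1 seeds harvested 4 days after pollination (DAP) from the cross Col-0×Bur-0 and its reciprocal Bur-0×Col-0, where the first name is the mother's, to find alleles whose expression depends on the parent they come from. Both parents are wild-type accessions, no other treatment or mutation entered these libraries, and mothers were emasculated and pollinated by hand. Seeds of at least 40 siliques were pooled for each of the 2 libraries, 1 per cross, and each library was sequenced on 4 lanes. Lanes repeat a library and not a cross, so the spread between plants was not measured and no test between the crosses can be made.

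A seed joins tissues with different parents. The seed coat is maternal tissue, so its transcripts carry only the mother's allele, whereas the embryo has 1 maternal and 1 paternal genome copy and the endosperm 2 maternal copies and 1 paternal. A window read only from the mother can thus belong to a gene expressed in the seed coat, to an imprinted gene of the endosperm or to RNA carried over from the egg and central cell. When the mother changes between the reciprocal crosses, the genotype of all maternal tissue changes with her, and the maternal allele measured is Bur-0 in one cross and Col-0 in the other. Whole seeds were used, so fewer cells of a tissue and less RNA per cell cannot be told apart, and a difference between the accessions of the mothers cannot be told apart from one between the single libraries.

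The windows were chosen from the values themselves. A match is 1 deposited alignment of a 36-nt read to 1 accession's version of a window, and the 4 lanes were summed. Eligible windows had the next matched SNP farther than 35 nt away, at least 10 matches in each cross and a maternal share of at least 90% in both. Of 147349 matched windows, 85694 were isolated in this way and 26206 were eligible. The ratio is the maternal matches per 1000000 matches of the library in Bur-0×Col-0 over those in Col-0×Bur-0, and a ratio of at least 4 made an eligible window a member. The 58 members are 0.221% of the eligible windows, and the same limit in the opposite direction was passed by 560 windows, or 2.14%. A ratio of at least 2 was found for 463 eligible windows (1.77%) with a Bur-0 mother and for 5797 (22.1%) with a Col-0 mother. The median ratio of the eligible windows was 0.694, a shift of -0.53 on the log2 scale, and relative to it the median ratio of the members, 5.68, was 8.18. Since the ratio chose the members, their ratios are a description and carry no test.

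**Figure D1:**
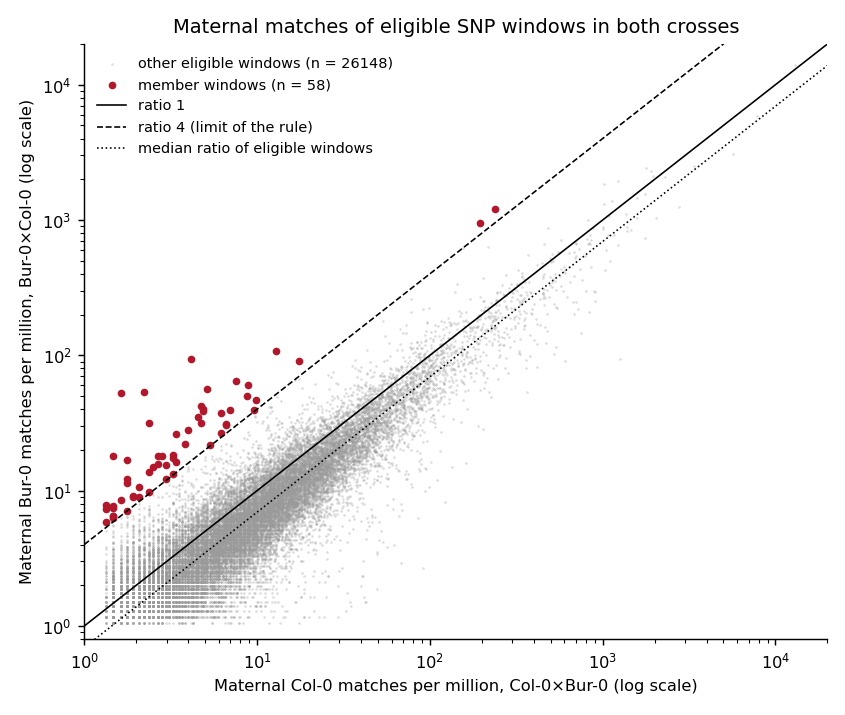
Maternal matches per 1000000 of the 26206 eligible windows, with Col-0×Bur-0 on the horizontal and Bur-0×Col-0 on the vertical axis (both log scales). The 58 members (red) lie above the dashed line of ratio 4 by construction, most of them at low levels with a Col-0 mother, whereas the bulk of the windows (grey) lies around the dotted line, the median ratio of 0.694.

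The members were among the better covered windows with a Bur-0 mother and among the less covered ones with a Col-0 mother, which the rule itself favours. With a Bur-0 mother they had 50 to 10416 maternal matches (median 157, against 49 over eligible windows), and with a Col-0 mother 9 to 1614 (median 21, against 57). Ratios ranged from 4.01 to 32.6, with 36 members under 6 and 11 at 8 or more. The exact 95% interval of the ratio covers counting error only, since copies of 1 molecule cannot be recognized. It lay wholly above 4 for 25 members and above 2 for all 58, with 2.14 as the lowest bound. The rule favours such bounds, since the same ratio and a minimum of matches chose the members, so nothing is read from them. Summed over the members, 31825 maternal matches with a Bur-0 mother stood against 4476 with a Col-0 mother. The 2 windows with the most matches held 58.2% of the former, and without them the sums were 13303 and 1539.

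The limit of the ratio cuts through a continuous range. Just inside it were the windows starting at 2736492 on chromosome 4 (61 against 12 maternal matches, ratio 4.01), at 11078103 on chromosome 2 (113 against 22, ratio 4.06) and at 23159088 on chromosome 1 (185 against 36, ratio 4.06). Just outside it were those starting at 8666961 on chromosome 4 (5308 against 1059, ratio 3.96), at 16906134 on chromosome 5 (566 against 113, ratio 3.96) and at 15155031 on chromosome 4 (80 against 16, ratio 3.95). The minimum of 10 matches also leaves out windows that are nearly empty with a Col-0 mother. There were 64 isolated windows with fewer than 10 matches in Col-0×Bur-0, a maternal share of at least 90% and a level in Bur-0×Col-0 at least 4 times that of 10 matches in Col-0×Bur-0, 26 of them without a maternal Col-0 match. In the opposite direction there were 337. The deepest of the 64 started at 20174732 on chromosome 1, with 600 maternal matches against 8, and 8 of the 64 lay within 1000 nt of a member.

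Paternal matches were almost absent from the members. The rule asked for a maternal share of at least 90%, and the shares found were 96.9% to 100% with a Bur-0 mother and 90% to 100% with a Col-0 mother. Over all members there were 58 paternal Col-0 matches and 42 paternal Bur-0 matches in the respective crosses. No paternal match in either cross was found for 28 members (48.3%, against 25.9% of the eligible windows). A count of 0 allows, at the share that 3 matches would make, a paternal share of up to 0.375% to 5.56% at the 30 members without one in Bur-0×Col-0. At the 38 members without one in Col-0×Bur-0 it allows 0.227% to 30%, so that in this cross a paternal contribution was often not detectable at the depth available.

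The lanes are parts of the libraries whose sums chose the members, so their values describe the members and do not repeat the difference independently. For all 58 members the lowest lane of Bur-0×Col-0, in matches per 1000000 of the lane, was above the highest lane of Col-0×Bur-0, as it was for 3.01% of the eligible windows, and nothing is read from this, since the rule favours it. Lane 1 of each cross was run on another instrument than lanes 2 to 4. Within the instrument of lane 1 the ratio was at least 4 for 48 members, against 580 of all 26206 eligible windows. The lowest value there was 2.06, and 4 members had no Col-0 match in that lane. Within the instrument of lanes 2 to 4 the ratio was at least 4 for 52 members, with 3.57 as the lowest, and the eligible windows were not counted. The rule favours these counts too. One lane stood apart. Window counts of lane 2 of Col-0×Bur-0 differed from those of the other lanes of that cross with a mean chi-square of 6.97 to 7.94 per window, whereas all other pairs of lanes of one cross had 0.980 to 1.20. The members summed to 557 matches per 1000000 in this lane and to 654 to 723 in the other lanes of Col-0×Bur-0, against 3705 to 3725 in the lanes of Bur-0×Col-0. Without lane 2 of Col-0×Bur-0 the median ratio of the members was 5.83, 55 of 58 still had a ratio of at least 4 and the lowest was 3.11. All parts of the rule were then met by 39 of the 58. Of the 19 others, 15 had fewer than 10 matches in that cross, 5 had a maternal share under 90% and 3 a ratio under 4, and some of them failed more than 1 part.

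**Figure D2:**
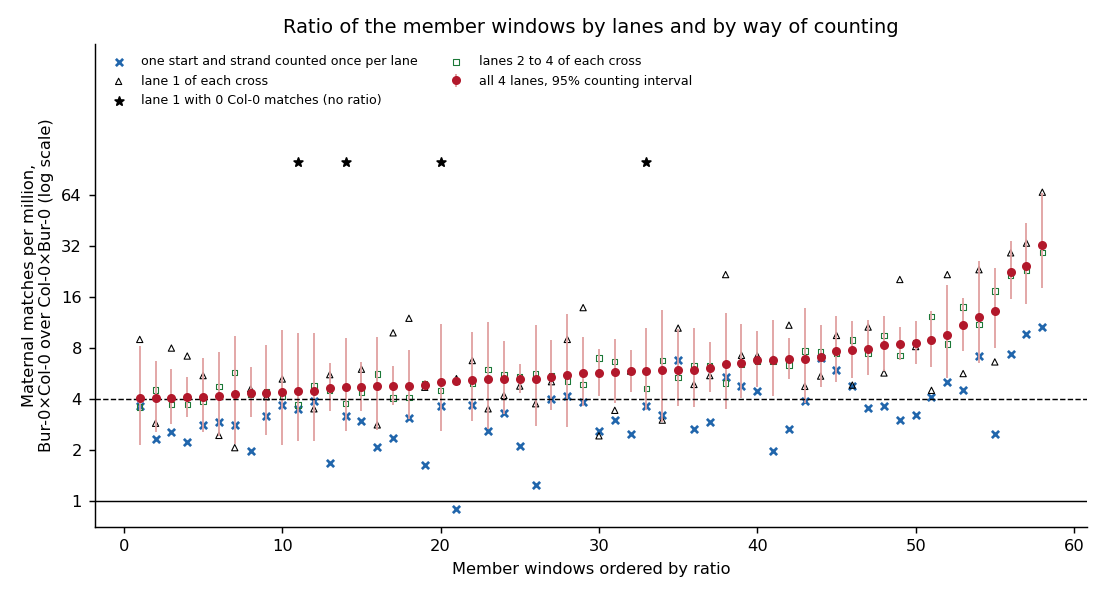
Ratio of maternal matches per 1000000, Bur-0×Col-0 over Col-0×Bur-0 (log scale), of the 58 members in order of their ratio, from all lanes with the exact 95% counting interval (red), from lane 1 alone (triangles; stars where lane 1 of Col-0×Bur-0 had no match), from lanes 2 to 4 (squares) and with each start and strand counted once per lane (blue crosses). Every ratio within 1 instrument is above 2, which the rule favours, and counting a start once per lane lowered the median from 5.68 to 3.20.

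Reads with the same start and strand may be separate fragments or copies of one fragment, which the files do not tell apart. When each start and strand was counted once per lane, the members' ratios ranged from 0.886 to 10.7 with a median of 3.20. A ratio of at least 4 was then found for 15 members, against 0.0649% of all eligible windows, and one of at least 2 for 52 members, against 0.962%, while 1 member was below 1. The count saturates at 36 starts on each strand and lane. A single start and strand held a median of 18.1% of a member's maternal matches with a Bur-0 mother and 22.7% with a Col-0 mother, against 20% in both crosses over the eligible windows.

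The most different window, on chromosome 1 from 29626665 to 29626735, had 89, 126, 112 and 127 maternal matches in lanes 1 to 4 of Bur-0×Col-0 and 1, 2, 6 and 2 in those of Col-0×Bur-0. The ratio was 32.6 (exact 95% interval 18.0 to 65.8), and no paternal match was found in either cross. As at every member, each lane with a Bur-0 mother was above each lane with a Col-0 mother, which the rule favours. Reads began at 56 combinations of start and strand in the former and at 9 in the latter, and with each counted once per lane the ratio was 10.7. The isolated window starting at 29626290, 375 nt away, had 547 maternal matches against 8 and was left out of the members only by the minimum of 10 matches. A second neighbour, starting at 29626111, did not share this, with 33 against 47.

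The pair on chromosome 5 was next. The window from 19899892 to 19899962 had 156, 223, 197 and 225 maternal matches in the lanes of Bur-0×Col-0 and 4, 7, 9 and 8 in those of Col-0×Bur-0, a ratio of 22.6 (exact 95% interval 15.5 to 34.2). The window from 19900209 to 19900279 had 89, 130, 122 and 121 against 2, 5, 4 and 4, a ratio of 24.3 (exact 95% interval 14.6 to 43.8). With a start counted once per lane the ratios were 7.38 and 9.63. Both windows thus differed to a similar extent, and their intervals overlap. The isolated window starting at 19899431, 461 nt before the first, had 24 maternal matches against 19 (ratio 0.998).

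Among the other windows with large ratios, that starting at 2338640 on chromosome 1 had 53, 68, 67 and 81 matches against 6, 6, 1 and 3 (ratio 13.3, exact 95% interval 8.03 to 23.6). All its reads ran in 1 orientation in both crosses, 45.0% of those with a Bur-0 mother began at 1 base, and counting a start once per lane lowered the ratio to 2.48. The member 129 nt from it had a ratio of 4.08. A window starting at 29325705 on the same chromosome had 31, 40, 39 and 45 matches against 1, 3, 4 and 2 (ratio 12.2, exact 95% interval 6.48 to 26). Here the starts were spread over 35 combinations with a Bur-0 mother, and the ratio stayed at 7.12 with a start counted once per lane. The isolated window 867 nt from it had 105 maternal matches against 2.

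**Figure D3:**
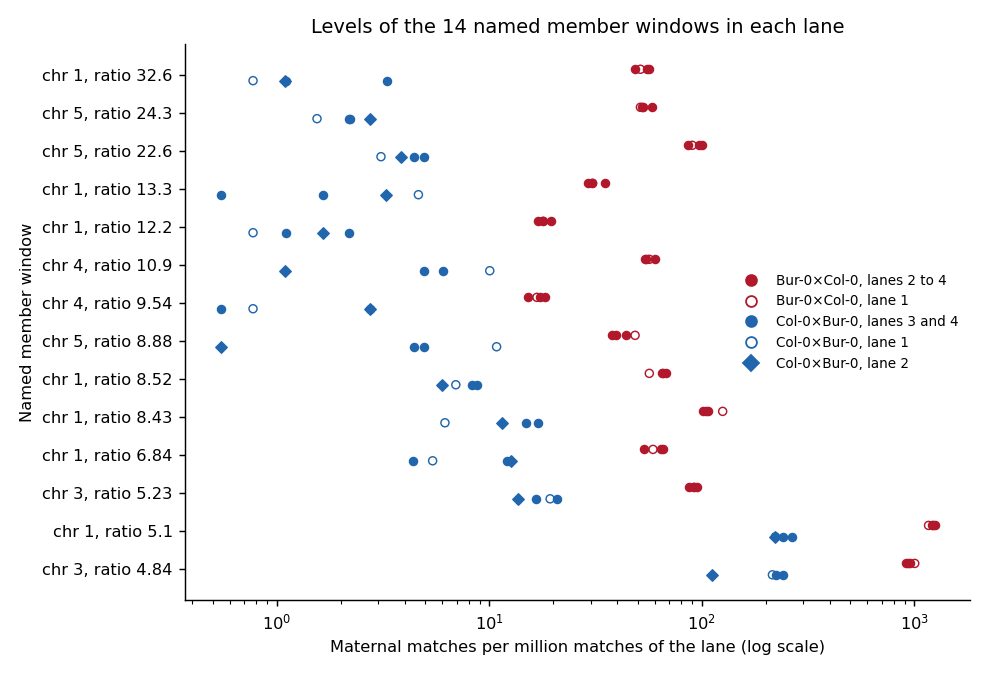
Maternal matches per 1000000 matches of the lane (log scale) for the 14 members with the most matches or the largest ratios, named by chromosome and ratio, in the lanes of Bur-0×Col-0 (red) and Col-0×Bur-0 (blue; diamonds mark lane 2, which stood apart from the other lanes of its cross). The red points of a window lie close together and to the right of all blue ones, which the rule favours, and the blue points of weakly covered windows spread by several-fold.

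Members lay close to each other more than once. There were 9 groups of 2 or more members with neighbouring members within 5000 nt, holding 24 of the 58, and 34 members lay alone. Eligible windows also lie several to a locus, and their grouping was not counted, so whether members group more than other windows is not known here. The largest group was on chromosome 1, where 5 members started between 13227292 and 13228261, with ratios of 5.21 to 8.52 and together 2498 maternal matches against 267. Its deepest window, starting at 13227969, had 217, 232, 245 and 235 matches in the lanes of Bur-0×Col-0 and 8, 21, 31 and 27 in those of Col-0×Bur-0 (ratio 8.43, exact 95% interval 6.76 to 10.6). Both further isolated windows of this stretch had ratios in the same direction, 7.84 and 4.11. All isolated windows there thus stood between 4.11 and 8.52. This group was also the one with the most paternal matches, 22 with a Bur-0 mother and 11 with a Col-0 mother.

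A second group held 4 members on chromosome 4, starting between 12339241 and 12339681, with ratios of 6.09 to 10.9 and 1242 maternal matches against 122. The window starting at 12339502 had 98, 134, 124 and 126 matches against 13, 2, 9 and 11. Of its matches with a Bur-0 mother 61.4% began at 1 base, and the ratio of 10.9 was 4.49 with a start counted once per lane. The other windows of the group, with ratios of 6.09 to 7.92, had ratios of 2.93 to 3.89 when counted in that way. On the same chromosome, 3 members started between 2736492 and 2737795 (ratios 4.01 to 9.54) and 2 between 9679314 and 9679856 (7.72 and 5.67). Isolated windows inside or beside the first of these had 121 maternal matches against 4, 55 against 0 and 5 against 7, so that the last did not follow its neighbours.

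The remaining groups were pairs. On chromosome 5, the windows starting at 26517908 and 26518460 had 338 against 47 and 360 against 32 maternal matches (ratios 5.68 and 8.88), and 3 isolated windows beside them had ratios of 2.17 to 3.64. In the second window lane 2 of Col-0×Bur-0 had 1 match and the other lanes 14, 9 and 8. On chromosome 1, the windows starting at 26287697 and 26287793 had 403 against 67 and 347 against 33 (ratios 4.75 and 8.30), with neighbours at 1.21 and 2.27. The last pair, also on chromosome 1, lay in FMO GS-OX2 and is described with the placed loci.

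Windows beside the members were not used to choose them and show how far the difference reaches. Within 1000 nt of a member there were 118 isolated windows with at least 10 maternal matches in both crosses together that were not members, at 36 of the 43 places. Their median ratio was 2.54, and 69 (58.5%) had a ratio of at least 2, against a median of 0.684 and 8.13% of all 42358 isolated windows of that depth outside the members. A ratio of at least 4 was found for 33 of them, which missed the members by depth or by maternal share, and a ratio of at least 1 for 87. By place, the median of the neighbours was at least 2 at 23 places and below 1 at 8. The ratios fell with distance. Up to 250 nt the median was 2.88 (28 of 44 at least 2), from 250 to 500 nt 2.59 (20 of 30), from 500 to 1000 nt 1.69 (21 of 44), from 1000 to 2000 nt 0.758 (17 of 52) and from 2000 to 5000 nt 0.636 (18 of 139), close to the median of all windows. Neighbours of 1 place may share a transcript and are not independent of each other.

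**Figure D4:**
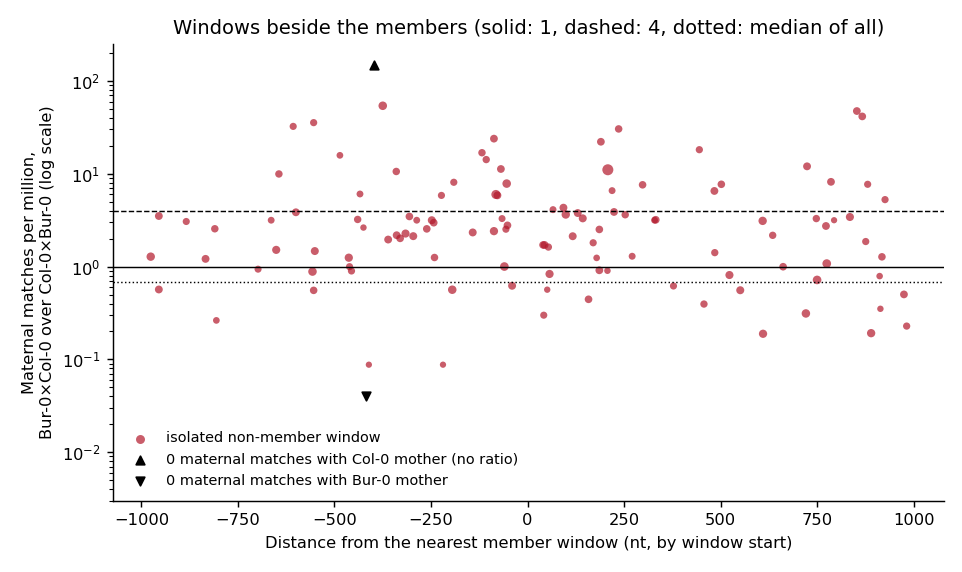
Ratio of maternal matches per 1000000 (log scale) of the 118 isolated windows within 1000 nt of a member that are not members, by the distance of their start from that of the nearest member. Larger points had more matches and triangles mark windows without a maternal match in one cross. Points lie mostly above 1 and above the dotted median of all such windows, 0.684, with a median of 2.54, but 8 places had a median below 1.

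Gene names could be given to few members. Loci were placed by matching the sums of matches per locus listed by the study to runs of windows, and 8 of the 58 members (13.8%) fell into 7 of the loci placed, against 32.5% of the eligible windows. For the others only the position and the nearest placed loci are known here, and whether a window lies in an exon, an intron or a UTR was not analysed here. Over the 1948 placed loci with at least 10 maternal matches in isolated windows, the median ratio was 0.702, and 28 loci (1.44%) had a ratio of at least 2 and 272 (14.0%) one of 0.5 or less.

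FMO GS-OX2 (AT1G62540) was the locus in which most windows shared the direction. Its product is a flavin monooxygenase that oxidizes the sulfur of methionine-derived glucosinolates, the defence compounds of the cabbage family. Its 29 matched windows, 11 of them isolated, lay between 23155476 and 23159328 on chromosome 1. All 29 held 2075 maternal matches with a Bur-0 mother and 379 with a Col-0 mother (ratio 4.32), with 1 paternal match. This total includes windows less than a read apart, whose Col-0 versions share sequence, so the isolated windows given below are the safer measure. The members starting at 23157109 and 23159088 had ratios of 4.74 (exact 95% interval 2.62 to 9.29) and 4.06 (exact 95% interval 2.83 to 5.97). In the lanes of Bur-0×Col-0 the first had 15, 21, 22 and 20 matches and the second 32, 46, 47 and 60, and in those of Col-0×Bur-0 they had 4, 3, 1 and 5 and 3, 17, 7 and 9. The other 7 eligible windows had ratios of 1.81 to 3.42, all on the same side, and the isolated windows together had 1277 against 327 maternal matches (ratio 3.08). The members thus stood at the upper end of a range that the whole locus shared. The gene belongs to a family with close copies on the same chromosome, and reads shared with a copy were not told apart here.

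In the other loci with several eligible windows the member stood alone. ALN (AT4G04955) encodes allantoinase, which breaks down the purine product allantoin and frees its nitrogen. Its member, starting at 2522830 on chromosome 4, had 38, 62, 56 and 68 maternal matches in the lanes of Bur-0×Col-0 and 3, 9, 8 and 3 in those of Col-0×Bur-0 (ratio 7.69, exact 95% interval 5.0 to 12.4). The window 60 nt before it had 374 against 295 matches (ratio 1.0), and the 4 other eligible windows ranged from 0.556 to 1.25. Reads with a Bur-0 mother began at bases 0 to 20 of the member, counted from 0 at the window's start, and those with a Col-0 mother only at bases 0 to 2, so that 8.93% of the former fell into the range of the latter.

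ERD2B (AT3G25040) is a receptor that returns escaped proteins to the endoplasmic reticulum. The member starting at 9125338 on chromosome 3 had 51, 62, 61 and 66 matches against 7, 11, 3 and 6 (ratio 7.02, exact 95% interval 4.71 to 10.9), whereas the 4 other eligible windows ranged from 0.567 to 1.27. The deepest of these had 311 against 342. Starts again differed between the crosses, from base 0 to 22 with a Bur-0 mother and from 0 to 5 with a Col-0 mother. SULTR4;2 (AT3G12520) exports sulfate from the vacuole. Its member, starting at 3968203 on chromosome 3, had 26, 23, 35 and 34 matches against 0, 5, 6 and 5 (ratio 5.82, exact 95% interval 3.44 to 10.5). The window 40 nt before it had 74 against 94, and the 10 other eligible windows, at 0.216 to 0.811, were all lower with a Bur-0 mother. Starts reached base 12 with a Bur-0 mother and base 2 with a Col-0 mother.

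SNRK2.2 (AT3G50500) is a protein kinase activated by abscisic acid. The member starting at 18752579 on chromosome 3 was the first matched window of the locus and had 10, 17, 20 and 26 matches against 2, 3, 3 and 3 (ratio 5.24, exact 95% interval 2.76 to 11.0). With a start counted once per lane the ratio was 1.24, and the 3 other eligible windows had 0.395 to 1.26. In AT1G61240 the member starting at 22588079 on chromosome 1 had 26, 30, 37 and 35 matches against 4, 4, 5 and 4 (ratio 5.95, exact 95% interval 3.57 to 10.5). The window 57 nt after it had 135 against 128 (ratio 0.833), and the 8 other eligible windows ranged from 0.632 to 1.83. Fewer than 50% of the matches with a Bur-0 mother began within the range of starts found with a Col-0 mother at 4 of the 58 members, against 0.424% of the eligible windows. These were the members of ALN, ERD2B and AT1G61240 and the window starting at 5622004 on chromosome 5. Within that range ALN had 20 matches with a Bur-0 mother against 23 with a Col-0 mother, and ERD2B 59 against 27. AT1G61240 had 51 against 17 there, and the window on chromosome 5 had 63 against 18. The range of starts narrows with the number of matches, and the members were chosen for few matches with a Col-0 mother, so these ranges are a description. The base with the most starts with a Bur-0 mother had 79 matches against 0 with a Col-0 mother at ALN (base 15). It had 96 against 0 at ERD2B (base 13) and 64 against 0 at AT1G61240 (base 22). A SNP without a match could lie within a read of these windows. Whether depth or such a SNP narrowed the ranges was not tested.

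**Figure D5:**
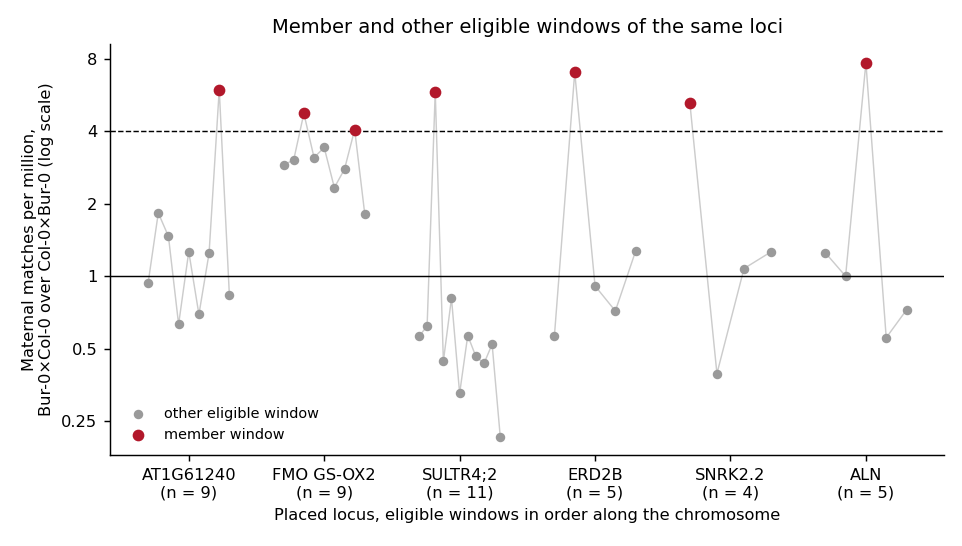
Ratio of maternal matches per 1000000 (log scale) of all eligible windows in the 6 placed loci that hold a member and at least 1 other eligible window, in their order along the chromosome. In FMO GS-OX2 all 9 windows lie above 1, between 1.81 and 4.74, whereas in the other loci the member (red) lies above 5 and the other windows between 0.216 and 1.83.

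The deepest member lay in AT1G56100. On chromosome 1 from 20987617 to 20987687, it had 2020, 2688, 2868 and 2840 maternal matches in the lanes of Bur-0×Col-0 and 287, 404, 441 and 482 in those of Col-0×Bur-0 (ratio 5.10, exact 95% interval 4.84 to 5.37), with 1 paternal match in each cross. The locus had 1 other matched window, with 5 against 15 maternal matches. The difference was carried by few starts. Bases 0, 5 and 9 held 80.2% of the matches with a Bur-0 mother and 25.9% of those with a Col-0 mother, with base 5 alone at 4940 against 114. The ratio was 15.8 over these 3 starts and 1.36 over all others. With a start counted once per lane the ratio was 0.886, the single member below 1, from 218 against 203 combinations of start, strand and lane. This count saturates with depth, so at the deepest member it cannot show a difference between the crosses.

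The second deepest member, on chromosome 3 from 18278237 to 18278307, had 1739, 2116, 2144 and 2107 matches against 278, 204, 437 and 404 (ratio 4.84, exact 95% interval 4.56 to 5.13). Lane 2 of Col-0×Bur-0 was the lowest of its cross, and the ratio was 4.17 without it. Base 29 held 47.7% of the matches with a Bur-0 mother and 60.2% of those with a Col-0 mother, so here the main start was shared, and the ratio was 1.61 with a start counted once per lane. The window 208 nt from it, starting at 18278445, was far deeper, with 151111 maternal matches with a Bur-0 mother and 10808 with a Col-0 mother (ratio 11.0). It was not eligible, since 8554 paternal Bur-0 matches lowered the maternal share to 55.8% with a Col-0 mother, whereas with a Bur-0 mother there were 72 paternal matches and a maternal share of 99.95%. At 23116014 on chromosome 3 started a window with 159, 204, 200 and 219 matches against 25, 25, 38 and 30 (ratio 5.23, exact 95% interval 4.31 to 6.41) and a neighbour 82 nt away with 1379 against 182.

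The 24 members that lay alone, in no placed locus and outside the named ones had ratios of 4.06 to 6.76 (median 4.73), with 50 to 273 maternal matches with a Bur-0 mother (median 100.5) and 9 to 45 with a Col-0 mother (median 17). By chromosome, the 58 members were 20, 5, 10, 14 and 9 on chromosomes 1 to 5, or 34.5%, 8.62%, 17.2%, 24.1% and 15.5%, against 26.7%, 14.4%, 19.4%, 16.0% and 23.5% of the eligible windows. Members of a group count separately here.

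None of the listed genes that could be placed held a member, but most members lie in no placed locus, so that unplaced genes of the lists were not examined, and FMO GS-OX2 is not in the glucosinolate list. The flavonoid and proanthocyanidin genes, which make the pigments of the inner seed coat, had 13 of 18 genes placed, with ratios in isolated windows of 0.492 to 1.18 (median 0.790, against 0.702 over all placed loci), none at 2 or more and 1 at 0.5 or less. Of these, 5 of the 6 seed coat markers were placed, and they ranged from 0.770 (TT12, a transporter of proanthocyanidin precursors) to 1.07 (LDOX, which makes anthocyanidins). BAN, which turns anthocyanidins into epicatechin, had 28996 against 29612 maternal matches there. Maternal matches of these placed genes were thus found in both libraries, and none of the genes reached a ratio of 2. Whether the amount of seed coat differed between the libraries was not tested. Of the endosperm markers, 2 of 6 were placed, ALE1 with 87 against 44 maternal matches and PHE1 with 2 against 33. The study lists PHE1 among its paternally expressed genes, so its maternal matches are no measure of endosperm RNA. Of the other lists, 1 of 23 glucosinolate genes (MVP1, 0.597), 1 of 4 heat shock genes (HSC70-1, 0.780) and 2 of 5 mucilage and seed coat epidermis genes (GL2, 0.897, and ARA12, 0.376) were placed. No gene of the lists for defence, photosynthesis, embryo, silique wall and leaf, and pollen was placed, so these tissues could not be examined in this way.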

How the data were processed

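The authors sequenced 36-nt reads of 1 mRNA library per cross on 4 lanes and mapped them with vmatch to 71-nt windows of TAIR8, each present with the Col-0 and with the Bur-0 base, allowing up to 2 mismatches and keeping matches unique among the windows. Uniqueness in the whole genome was not required. Col-0 versions of windows less than a read apart share sequence, so members and neighbours were taken from isolated windows. Isolation was judged from windows with a match, so a SNP without a match could lie closer. The placing of loci and the total of FMO GS-OX2 also used windows that were not isolated. The authors deposited 1 line per match, with the position of the match in its window as the only number and no normalized value. Matches were counted here per window, allele, start, strand and lane (6773239 in Col-0×Bur-0, 1295748 to 1830948 per lane, and 8576779 in Bur-0×Col-0, 1733892 to 2313110 per lane).

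Ratios were scaled to the total matches of each library, with exact conditional (Clopper-Pearson) 95% intervals. With 1 library per cross, no test was made. Of 2147 loci with listed sums, 2024 were placed on a single run of windows in the order of the loci, and symbols were taken by locus from TAIR10.1. The table of loci was held only in part. The windows named are the 10 members with the most maternal matches in Bur-0×Col-0, the 10 with the largest ratio among those with at least 100, the 3 nearest to the limit on each side, and, beyond this rule and chosen after their values were seen, those in placed loci, in groups or beside members. The members and gene lists were chosen with earlier results of these data known. Sequences of the windows were not used here. The steps were tested on simulated data. Counting used pandas 2.3.3, intervals SciPy 1.17.1 with NumPy 2.4.6, and plots Matplotlib 3.10.9, under Python 3.11.15.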

Additional observations from a re-analysis of the deposited data

How the results depend on the processing

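The number of members, 58, depended on most choices. It was 169 with the median ratio of the eligible windows set to 1, 11 when a start and strand counted once in each lane, 33 with at least 20 matches, 9 with at least 50 matches, 132 with a ratio of at least 3, 11 with a ratio of at least 8, 35 with the next SNP farther than 70 nt and 734 with no limit on it. It was 54 when scaled to maternal matches and 45 with a maternal share of at least 95%. Leaving out 1 lane gave 41 to 60. Chosen after seeing the data, lane 1 of each cross alone gave 10, where few windows reached 10 matches, and lanes 2 to 4 gave 50. The median ratio of the members was 3.20 with starts counted once, 8.18 with the median set to 1, 5.47 to 5.83 without 1 lane, and 5.90 and 5.60 on the respective instruments. That of the neighbouring windows, 2.54, ranged from 1.90 with starts counted once to 2.71 within 500 nt, and from 2.41 to 2.65 without 1 lane, which was also added after the data had been seen. Of the 26 single windows recomputed, 19 moved out of their counting interval with starts counted once, and 6 stayed within it. With the median set to 1, 8 moved and 18 stayed, and leaving out 1 lane moved 2 of 208 values. Only 1 window fell below 1, that of AT1G56100 with starts counted once (0.886). It had 218 against 203 combinations in a count that saturates with depth, so this is not read as a change of direction. No paired analysis was possible because each cross has 1 library and the lanes carry no pairing. Depth limits the ratios, since the members had a median of 21 maternal matches in Col-0×Bur-0.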
